A study of Mus musculus with 22 samples.

Results

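The genes that carry a cell out of G1 were followed through 4 endothelial and blood-forming populations of the mouse embryo. They were represented by 10 of the 24454 genes of the count table, chosen by a list of gene names, and all 10 had a row. These were the D cyclins Ccnd1, Ccnd2 and Ccnd3, their kinases Cdk4 and Cdk6, the INK4 inhibitor Cdkn2c, the CIP/KIP inhibitors Cdkn1a, Cdkn1b and Cdkn1c, and the retinoblastoma gene Rb1.

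The data were 22 RNA-seq libraries, each made by Smart-seq2 from 25 cells of the aorta-gonad-mesonephros (AGM) region of untreated C57BL/6 embryos. The AGM is where endothelial cells of the dorsal aorta give rise to blood stem and progenitor cells (HSPCs), and the cells were sorted as positive for VE-cadherin and then split by CD44 and Kit. The CD44Neg population, labelled as endothelial, had 4 libraries at embryonic day (E) 9.5, 3 at E10 and 3 at E11, and the CD44LoKitNeg population, labelled as hemogenic endothelial and written CD44Low by the study, had 1, 2 and 3. The CD44LoKitPos population, labelled as pre-HSPC, had 1 library at E9.5 and 2 at E10, and the CD44High population, labelled as HSPC, had 3 libraries, all at E11. The date in the labels goes with the stage, so stage and date cannot be told apart. The labels do not tell whether libraries came from separate embryos, so the p-values measure only the spread between these libraries, which may be technical.

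D cyclins are made in response to growth signals and bind CDK4 or CDK6, and the active complexes phosphorylate the retinoblastoma protein, which then releases E2F factors that switch on the genes of DNA replication. INK4 proteins block CDK4 and CDK6 directly, whereas the CIP/KIP proteins p21, p27 and p57 bind cyclin-kinase complexes and hold back CDK2 in particular. p57, encoded by the maternally expressed imprinted gene Cdkn1c, is known for its high level in quiescent blood stem cells, and CDK6 for its part in the growth of blood progenitors.

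Library totals ran from 3912350 to 8657546 counts. In the 20 pairs that shared both population and stage, the counts differed by far more than sampling noise (chi-square per degree of freedom 17 to 85.2), so each library was counted once. The CD44High libraries went against part of their label: Cdh5, which encodes VE-cadherin, had 0 counts in all 3, and the summed level of 8 endothelial markers was 14.1 to 78.7 normalized CPM (counts scaled to a common library size), against 3520 to 5920 in CD44Neg. The summed level of 8 macrophage markers, which include Csf1r and the C1q genes, was 1680 to 4560 CPM in CD44High and at most 52.9 in any other library. The 8 blood progenitor markers, which include Ptprc and Myb, summed to 1340 to 2510 CPM in CD44High, 359 to 1300 in CD44LoKitPos, 4.49 to 134 in CD44LoKitNeg and 1.81 to 23.8 in CD44Neg. In the CD44High libraries, erythroid markers summed to 58.8, 277 and 281 CPM and mesenchyme markers to 0.271, 105 and 149, against at most 61.3 and 63.0 elsewhere. The lowest CD44High value of each list was thus within the range of the other populations. The part of these markers' cells in the CD44High results below was not tested.

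In GENCODE M21 (GRCm38, the assembly also called mm10), the D cyclins were Ccnd1 at chr7:144929931-144939925, Ccnd2 at chr6:127125162-127152193 and Ccnd3 at chr17:47505051-47599691. Cdk4 was at chr10:127063534-127067920 and Cdk6 at chr5:3341485-3531008. The inhibitors were Cdkn2c at chr4:109660876-109667189, Cdkn1a at chr17:29090976-29100727, Cdkn1b at chr6:134920401-134925513 and Cdkn1c at chr7:143458339-143461050, and Rb1 was at chr14:73183673-73325822. The exons of 8 members overlap those of a gene on the other strand, over 23.4% of the exon length of Ccnd1 (LTO1), 19.7% of Cdk4 (Tspan31), 30.7% of Cdkn1c (Gm44732), 8.11% and 6.78% of Rb1 (Rcbtb2 and Lpar6) and 7.68% of Cdkn1a (AC167363.2), with 2.63% to 4.11% per overlapping gene in Ccnd2, Ccnd3 and Cdk6. Smart-seq2 does not mark the strand, so reads from these stretches cannot be told apart. A processed pseudogene, Ccnd3-ps on chromosome 4, may share reads with Ccnd3.

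RefSeq promoter windows (GRCm38.p6) were found for 6 of the 10 members, and their 250 bases before the start were used. Those of Cdk4 and Cdk6 are shown because these kinases do the same work in G1, and Cdk6 was called higher in CD44High than in both endothelial populations while Cdk4 was not. Capitals mark the E-box word CACGTG, which reads the same on both strands. The Cdk4 window is chr10:127063285-127063534 and the Cdk6 window chr5:3343643-3343892, both on the plus strand and read 5′ to 3′ towards the start of Cdk4-201 and of Cdk6-202. The Cdk4 window ends at the start of the annotated gene. That of Cdk6 lies inside the annotated gene, which starts at chr5:3341485, and no window before that first start was read.
Cdk4: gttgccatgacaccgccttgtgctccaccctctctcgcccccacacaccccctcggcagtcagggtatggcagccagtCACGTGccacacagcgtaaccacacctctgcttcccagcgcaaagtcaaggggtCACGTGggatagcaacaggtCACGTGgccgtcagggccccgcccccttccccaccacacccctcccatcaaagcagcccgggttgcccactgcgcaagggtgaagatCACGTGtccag
Cdk6: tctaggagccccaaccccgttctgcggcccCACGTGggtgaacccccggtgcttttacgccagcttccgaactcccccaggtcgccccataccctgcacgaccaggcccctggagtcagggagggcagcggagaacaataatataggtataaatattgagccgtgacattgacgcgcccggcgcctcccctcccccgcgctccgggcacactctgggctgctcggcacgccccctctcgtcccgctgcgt
The Cdk4 window held 4 E-boxes, at 172, 118, 98 and 11 bases before the start, and the Cdk6 window held 1, at 220 bases. Of all 32851 windows of this length, 6.02% held at least 1 E-box and 0.0213% held 4 or more. E2F factors were searched by the word TTTCGCG, by its close relative TTTGGCG and by a second relative, TTTCCCG, on both strands. Neither window held any of them, and 4.57% of all windows did. The RUNX word TGTGGT was found 2 times in the Cdk4 window and not in that of Cdk6 (14.0% of windows), and the TCF/LEF word CTTTGAT was found 1 time in that of Cdk4 and not in that of Cdk6 (3.21% of windows). None of the windows of Ccnd3, Cdkn1a, Cdkn1b and Cdkn2c held an E-box. These matches describe letters and not bound sites.

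The 6 pairwise comparisons ask which genes differ between the sorted populations. A gene was called where the Benjamini-Hochberg adjusted p of edgeR's quasi-likelihood test was under 0.01, and the comparisons share libraries. Cdkn2c, which did not pass the filter on low counts in the first of them and passed in the others only through CD44High, is left out of these counts. In CD44LoKitNeg against CD44Neg, 2 of the 9 other members were called, both lower, beside 10.2% of all genes tested (4.94% higher and 5.23% lower). In CD44LoKitPos against CD44Neg, 1 of 9 was called, lower, beside 3.48% of genes (2.08% higher, 1.41% lower). In CD44LoKitPos against CD44LoKitNeg, none of 9 was called by edgeR, with 5 at an unadjusted p under 0.05 and 1 called by DESeq2, beside 4.26% of genes (2.55% higher, 1.71% lower). That split depended on the scaling: 330 of 552 called genes were higher, but 218 of 491 with DESeq2's size factors, which shifted the median of all genes by -0.13 on the log2 scale.

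The CD44High comparisons held more calls. Against CD44LoKitPos, 3 of 9 members were called, all lower, beside 3.01% of genes (0.78% higher, 2.23% lower). Against CD44LoKitNeg, 3 of 9 were called, 1 higher and 2 lower, beside 16% of genes (7.79% higher, 8.17% lower). Against CD44Neg, 5 of 9 were called, 1 higher and 4 lower, beside 14.4% of genes (7.14% higher, 7.25% lower). The median log2 fold change over these 9 members was -0.18 in CD44LoKitNeg against CD44Neg, 0.25 in CD44LoKitPos against CD44Neg and -0.42 in CD44LoKitPos against CD44LoKitNeg. In CD44High it was -0.52, -0.47 and -0.58 against CD44LoKitPos, CD44LoKitNeg and CD44Neg. The median of all genes tested lay between -0.02 and 0.01.

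**Figure D1:**
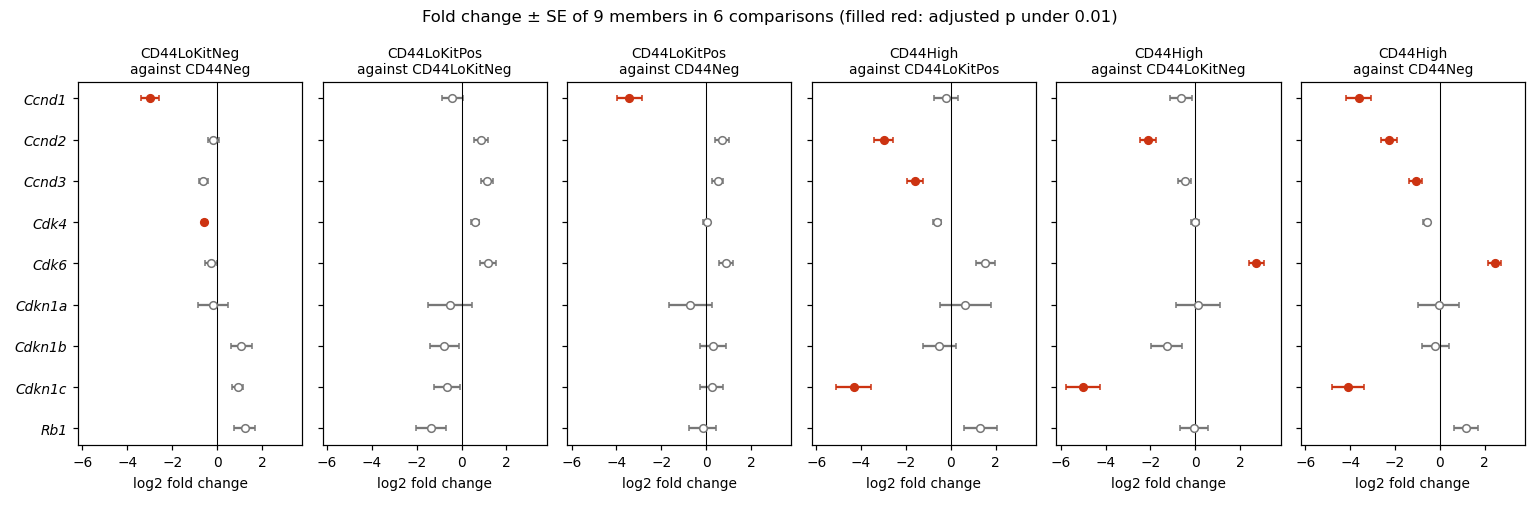
Log2 fold change (x axis) with its standard error for 9 members (y axis) in 6 comparisons of populations, from edgeR's quasi-likelihood fit. Filled red points have an adjusted p under 0.01: Ccnd1 and Cdk4 in the first panel, Ccnd1 in the third, Ccnd2 and Cdkn1c in each CD44High panel, Ccnd3 in CD44High against CD44LoKitPos and CD44Neg, Cdk6 in CD44High against CD44LoKitNeg and CD44Neg, and Ccnd1 in CD44High against CD44Neg.

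Ccnd1, which encodes cyclin D1, was high in CD44Neg cells and low in all CD44-positive populations. In the 10 CD44Neg libraries its level had a lowest value of 124 normalized CPM, a median of 179 and a highest value of 204. In the 6 CD44LoKitNeg libraries these values were 3.76, 26.3 and 35.96. It was 16.6, 19.2 and 11.9 CPM in CD44LoKitPos replicates 17, 18 and 19, and 10.9, 15.4 and 14.9 in CD44High replicates 20, 21 and 22. The lowest CD44Neg library was thus above every CD44-positive one, while the 3 CD44-positive populations overlapped.

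The mean Ccnd1 level was 170.2 ± 31.5 CPM (SD, n = 10) in CD44Neg and 21.3 ± 13.8 (n = 6) in CD44LoKitNeg, a log2 fold change of -2.99 (SE 0.40, edgeR adjusted p = 4.02e-05). In bulk libraries, fewer cells with a transcript and less of it per cell cannot be told apart. Ccnd1 was also lower in CD44LoKitPos (log2 fold change -3.42, SE 0.54, adjusted p = 0.000249) and in CD44High (-3.62, SE 0.55, adjusted p = 2.47e-05), each against CD44Neg. Within stages the first difference was -3.69 at E11 alone (adjusted p = 0.0135, no longer called) and -2.50 at E9.5 and E10 (adjusted p = 0.000139).

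Ccnd2, the gene of cyclin D2, did not set the endothelial populations apart. Its level in CD44Neg ran from 99.9 to 392 CPM with a median of 175, and in CD44LoKitNeg from 128 to 230 with a median of 181. It was 390.0, 362 and 199.6 CPM in CD44LoKitPos replicates 17, 18 and 19, the first 2 of which are E10 libraries. In CD44High replicates 20, 21 and 22 it was 38.3, 27.7 and 53.7 CPM, below every other library.

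Ccnd2 was lower in CD44High than in CD44LoKitPos by 2.99 on the log2 scale (log2 fold change -2.99, SE 0.42, edgeR adjusted p = 3.6e-05). Against CD44LoKitNeg and CD44Neg, the log2 fold changes were -2.11 (SE 0.37, adjusted p = 0.000162) and -2.28 (SE 0.36, adjusted p = 4.8e-05). At E11 alone, where all CD44High libraries were taken, these were -2.18 (adjusted p = 0.000461) and -2.22 (adjusted p = 0.000548). No stage held both CD44High and CD44LoKitPos, so stage and population cannot be told apart in that pair.

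Ccnd3, which encodes cyclin D3, was also highest on average in CD44LoKitPos. Its level ran from 129 to 301 CPM in CD44Neg (median 203) and from 96.0 to 176 in CD44LoKitNeg (median 148). It was 392, 331 and 189.7 CPM in CD44LoKitPos replicates 17, 18 and 19. CD44High replicates 20, 21 and 22 had 69.0, 76.0 and 156 CPM. All CD44LoKitPos libraries were above all CD44LoKitNeg and all CD44High ones, and CD44Neg overlapped with each of the others.

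Ccnd3 was lower in CD44High than in CD44LoKitPos (log2 fold change -1.60, SE 0.34, edgeR adjusted p = 0.00366) and than in CD44Neg (-1.08, SE 0.29, adjusted p = 0.00689). The first call was lost without any 1 of CD44LoKitPos replicates 17 and 18 and CD44High replicates 20 and 21 (adjusted p up to 0.0198), and the second without CD44Neg replicate 10 or CD44High replicate 20 or 21 (up to 0.041) and at E11 alone (0.0402). In CD44LoKitPos against CD44LoKitNeg it stood at the threshold (1.13, SE 0.28, edgeR adjusted p = 0.01), and it was called by DESeq2 (adjusted p = 0.00813) and without CD44Neg replicate 6 (0.00758), CD44LoKitPos replicate 19 (0.00381) or CD44High replicate 22 (0.0067). In CD44LoKitNeg against CD44Neg the log2 fold change was -0.61 (SE 0.18, adjusted p = 0.023), called only with stage as a covariate (-0.69, adjusted p = 0.00372).

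**Figure D2:**
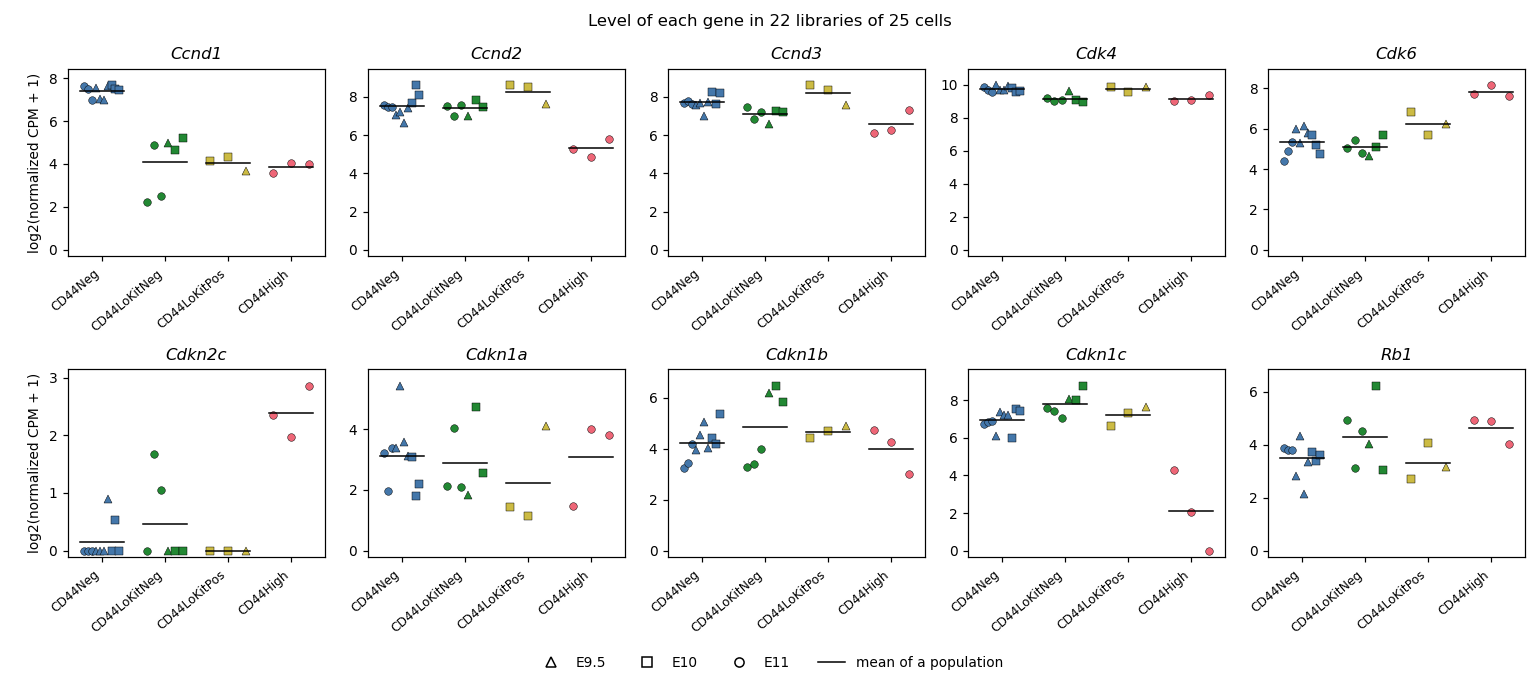
Level of each of the 10 genes in every library, as log2(normalized CPM + 1) on the y axis, by population on the x axis, with the stage as the shape of the point and a bar at the population's mean. Ccnd1 is highest in CD44Neg, Ccnd2 and Cdkn1c are lowest in CD44High, and Cdk6 and Cdkn2c are highest in CD44High.

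Because the D cyclins are read against each other by length, their levels were also divided by the exon length of each gene (CPM per kb). That length joins the exons of all annotated transcripts: 4.71 kb for Ccnd1, 9.41 for Ccnd2 and 8.78 for Ccnd3. Where cells use shorter transcripts, the level per kb is understated. Shares, ranks and ratios between genes, here and below, therefore depend on these lengths. In CD44Neg, Ccnd1 made up 45.0% ± 5.8 (SD, n = 10) of the summed D cyclin level per kb, Ccnd3 30.1% ± 4.0 and Ccnd2 24.9% ± 6.3. In CD44LoKitNeg the share of Ccnd1 was 12.05% ± 8.3 (n = 6), with a lowest library at 1.97% and a highest at 20.9%, and Ccnd2 held 47.1% ± 4.8. The 2 lowest, replicates 11 and 13, were E11 libraries, but so was replicate 12, at 18.4%.

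In CD44LoKitPos the share of Ccnd1 was 3.93%, 5.07% and 5.57% in replicates 17, 18 and 19, and Ccnd2 and Ccnd3 held 47.0% ± 0.87 and 48.2% ± 1.5. In CD44High, Ccnd3 held 60.02% ± 6.0 and Ccnd1 16.7% ± 5.1 (n = 3). The summed level moved too: it was 81.2 ± 16.5 CPM per kb in CD44Neg, 38.8 ± 6.1 in CD44LoKitNeg, 71.8 ± 23.4 in CD44LoKitPos and 18.6 ± 7.0 in CD44High. Every CD44LoKitNeg library (31.0 to 47.0) was below every CD44Neg library (51.8 to 103), and every CD44High library (14.2 to 26.6) was below both. These sums and shares are descriptions and were not tested.

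**Figure D3:**
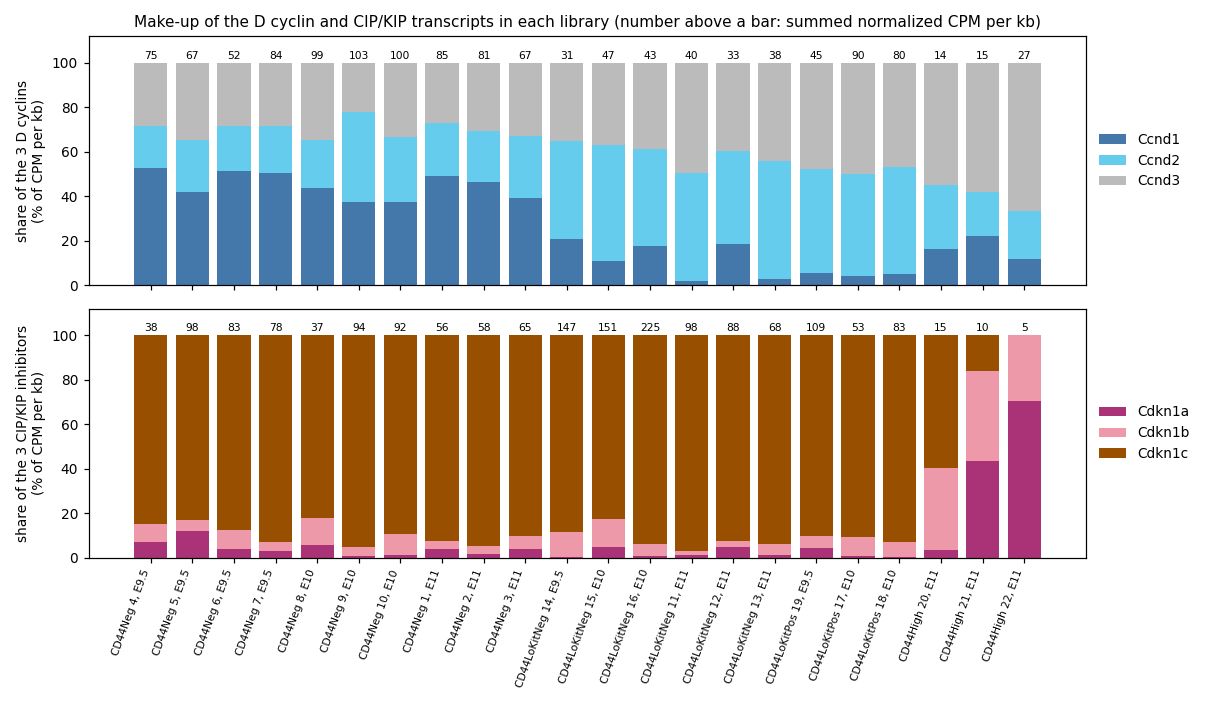
Share (y axis, %) of each D cyclin (top) and of each CIP/KIP inhibitor (bottom) in the summed normalized CPM per kb of its family, for each library (x axis, population, replicate and stage), with that sum above the bar. Ccnd1 takes 37.5% to 52.7% of the D cyclins in CD44Neg and at most 22.0% elsewhere, and Cdkn1c takes over 82% of the CIP/KIP level outside CD44High.

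Cdk4 had the highest mean level per length in every population, although Cdkn1c was above it in CD44LoKitNeg replicate 16 (211.0 against 149.9 CPM per kb). It was at 262 ± 28.5 CPM per kb in CD44Neg and 174 ± 25.5 in CD44High. Its level in CD44Neg ran from 737 to 1004 CPM with a median of 818, and in CD44LoKitNeg from 487 to 767 with a median of 538. CD44LoKitPos replicates 17, 18 and 19 had 923, 759 and 926 CPM, and CD44High replicates 20, 21 and 22 had 509, 526.5 and 661. The single E9.5 library of CD44LoKitNeg, replicate 14, was its highest, and the only one to overlap with CD44Neg.

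Cdk4 was lower in CD44LoKitNeg than in CD44Neg (log2 fold change -0.56, SE 0.13, edgeR adjusted p = 0.0034). The call was lost with no filter on low counts (adjusted p = 0.013), without CD44LoKitNeg replicate 15 (0.0121) or 16 (0.0112), and within stages, where the log2 fold change was -0.52 at E11 (0.0448) and -0.45 at E9.5 and E10 (0.054). In CD44LoKitPos against CD44LoKitNeg it was 0.60 (SE 0.16, adjusted p = 0.0194), called only without the E9.5 library, CD44LoKitNeg replicate 14 (0.70, adjusted p = 0.00516). In CD44High against CD44Neg it was -0.58 (SE 0.16, adjusted p = 0.0102), just past the threshold, and 17 of 27 alternatives called it.

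Cdk6 differed from Cdk4 in CD44High, where it was highest. In CD44Neg its level ran from 20.4 to 68.3 CPM with a median of 39.1, and in CD44LoKitNeg from 23.9 to 50.8 with a median of 32.6. It was 111, 49.9 and 75.5 CPM in CD44LoKitPos replicates 17, 18 and 19, and 208, 286 and 194 in CD44High replicates 20, 21 and 22. All 3 CD44High libraries were above the other 19, and CD44LoKitPos overlapped with both endothelial populations.

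Cdk6 was higher in CD44High than in CD44LoKitNeg (log2 fold change 2.72, SE 0.34, edgeR adjusted p = 2.18e-06) and than in CD44Neg (2.44, SE 0.29, adjusted p = 1.25e-06). At E11 alone the values were 2.65 (adjusted p = 0.000307) and 2.89 (adjusted p = 0.000242). Against CD44LoKitPos it was 1.55 (SE 0.41, adjusted p = 0.0228), called by DESeq2 only. Of the summed Cdk4 and Cdk6 level per kb, Cdk6 made up 1.14% ± 0.39 in CD44Neg (n = 10), 1.46% ± 0.58 in CD44LoKitNeg (n = 6), 2.03% ± 0.63 in CD44LoKitPos and 8.75% ± 2.4 in CD44High (n = 3 each), where Cdk4 thus still held most of it.

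**Figure D4:**
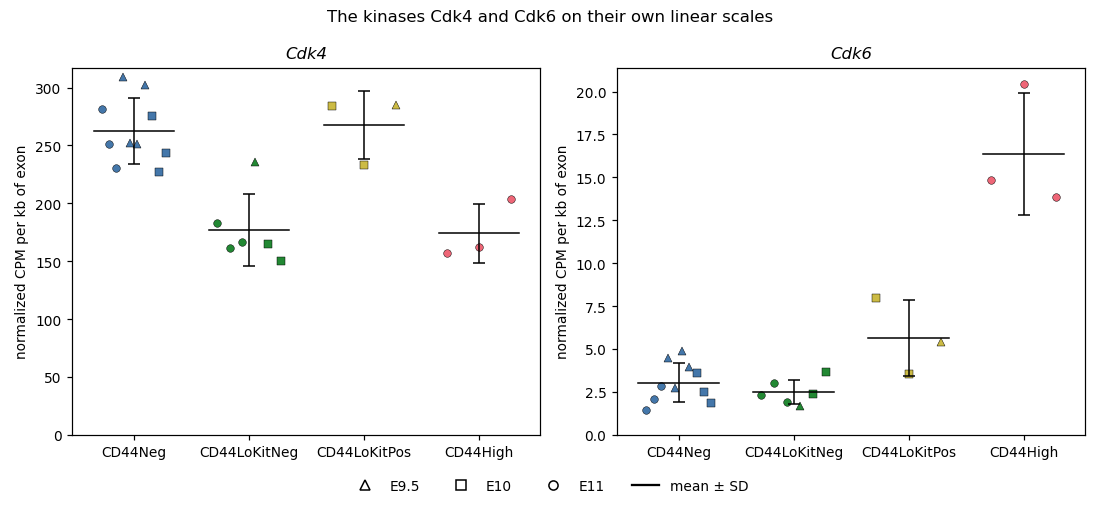
Cdk4 (left) and Cdk6 (right) as normalized CPM per kb of exon (y axes, linear, each on its own scale) in every library by population (x axis), with the mean and its SD and the stage as the shape of the point. Cdk6 averages 16.4 CPM per kb in CD44High and 3.04 in CD44Neg, while Cdk4 averages 174 and 262.

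Cdkn2c, the gene of the INK4 inhibitor p18, was read in 7 of the 22 libraries. It had counts in 2 of 10 CD44Neg libraries (6 in replicate 7 and 2 in replicate 9), in 2 of 6 CD44LoKitNeg libraries (17 in replicate 12 and 7 in replicate 13) and in none of 3 CD44LoKitPos libraries. CD44High replicates 20, 21 and 22 had 21, 11 and 23 counts, or 4.10, 2.92 and 6.24 CPM. Where no read was counted, as many as 3 counts remain possible from counting error alone, or between 0.348 and 0.794 CPM depending on the library.

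Each CD44High library (2.92 to 6.24 CPM) was above that limit in CD44LoKitPos (0.465 CPM at most per library), which was not tested. Cdkn2c passed the filter on low counts only in the fit of all 22 libraries, and there through the CD44High libraries, where it was high, so its fitted fold changes and p-values support nothing and are not given. Of the other INK4 genes, named after their values were seen, Cdkn2a and Cdkn2b had 0 counts in all 22 libraries, while Cdkn2d passed the filter and was not called in any comparison.

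Cdkn1c, which encodes p57, was the leading CIP/KIP inhibitor of the endothelial cells and was almost absent from CD44High. Its level in CD44Neg ran from 61.9 to 183 CPM with a median of 133, and in CD44LoKitNeg from 131 to 430.2 with a median of 224. It was 98.4, 157 and 200.1 CPM in CD44LoKitPos replicates 17, 18 and 19. CD44High replicates 20, 21 and 22 had 18.6, 3.19 and 0 CPM, from 95, 12 and 0 counts, all below every other library.

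Cdkn1c was lower in CD44High than in CD44LoKitPos (log2 fold change -4.33, SE 0.77, edgeR adjusted p = 0.000615), CD44LoKitNeg (-4.99, SE 0.76, adjusted p = 3.11e-05) and CD44Neg (-4.08, SE 0.71, adjusted p = 0.000137). The size of these differences rested on CD44High replicate 20, the library with 95 counts beside 12 and 0 in the others. Without it they were -6.64, -7.32 and -6.38. At E11 alone the last 2 were -4.52 (adjusted p = 0.00537) and -3.92 (0.015, no longer called). Between CD44LoKitNeg and CD44Neg the log2 fold change was 0.92 (SE 0.26, adjusted p = 0.0153), which missed the threshold and was called by DESeq2 (0.00258), with stage as a covariate (0.00931) and without CD44LoKitNeg replicate 13 (0.00886). Of the 6 CD44LoKitNeg libraries, 4 (193, 254, 266 and 430.2 CPM) were above the highest CD44Neg library.

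Cdkn1b, the gene of p27, was low in CD44Neg, and it split the CD44LoKitNeg libraries by stage. In CD44Neg it ran from 8.47 to 40.6 CPM with a median of 17.3. The E11 CD44LoKitNeg libraries, replicates 11, 12 and 13, had 8.87, 9.70 and 14.9 CPM, whereas replicate 14 at E9.5 had 72.8 and replicates 15 and 16 at E10 had 87.4 and 56.6. The 3 earlier libraries were above all others of the series, including the earlier CD44LoKitPos ones (20.5, 24.7 and 28.5 CPM for replicates 17, 18 and 19) and CD44High replicates 20, 21 and 22 (25.8, 18.1 and 7.05).

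Cdkn1a, which encodes p21 and is a classic target of p53, varied widely within each population. It ran from 2.46 to 41.7 CPM in CD44Neg (median 7.98) and from 2.55 to 25.3 in CD44LoKitNeg (median 4.11). CD44LoKitPos replicates 17, 18 and 19 had 1.71, 1.20 and 16.1 CPM, and CD44High replicates 20, 21 and 22 had 1.76, 15.2 and 13.01. All 4 populations overlapped, and Cdkn1a was not called in any comparison or alternative.

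Cdkn1c made up 89.3% ± 4.8 of the summed CIP/KIP level per kb in CD44Neg (n = 10), 91.4% ± 5.1 in CD44LoKitNeg (n = 6) and 91.3% ± 1.6 in CD44LoKitPos (n = 3). In CD44High replicates 20, 21 and 22 its share was 59.6%, 15.96% and 0%, and the sum of the 3 inhibitors was 15.3, 9.80 and 5.21 CPM per kb, below the lowest library elsewhere (36.9). The D cyclin sum was 1.31 ± 0.62 times the CIP/KIP sum in CD44Neg and 0.344 ± 0.14 times in CD44LoKitNeg, where the highest library (0.560) was below the lowest of CD44Neg (0.626). It was 1.69, 0.970 and 0.416 times in CD44LoKitPos and 0.934, 1.52 and 5.11 times in CD44High. These ratios compare transcripts, depend on the exon lengths used and say nothing of protein.

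Rb1, the substrate that the D cyclin kinases inactivate, was low throughout. It ran from 3.35 to 19.1 CPM in CD44Neg (median 11.7) and from 7.16 to 73.1 in CD44LoKitNeg (median 18.6), where the highest value, replicate 15, was more than 2 times the next (29.0). CD44LoKitPos replicates 17, 18 and 19 had 5.58, 15.9 and 7.98 CPM, and CD44High replicates 20, 21 and 22 had 29.5, 28.5 and 15.4. All populations overlapped, and Rb1 was not called in any comparison or alternative.

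The member values not given above stayed short of the threshold. Leaving Cdkn2c aside, these log2 fold changes ran from -0.28 (Cdk6) to 1.23 (Rb1) for 5 members in CD44LoKitNeg against CD44Neg, from -1.39 (Rb1) to 1.18 (Cdk6) for 7 in CD44LoKitPos against CD44LoKitNeg, and from -0.71 (Cdkn1a) to 0.89 (Cdk6) for 8 in CD44LoKitPos against CD44Neg. In CD44High they ran from -0.61 (Cdk4) to 1.33 (Rb1) for 5 against CD44LoKitPos, from -1.28 (Cdkn1b) to 0.13 (Cdkn1a) for 6 against CD44LoKitNeg and from -0.21 (Cdkn1b) to 1.16 (Rb1) for 3 against CD44Neg. The lowest edgeR adjusted p among them was 0.024, for Cdk6 in CD44LoKitPos against CD44LoKitNeg.

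Stage was tested within the endothelial populations. In CD44Neg, E11 against E9.5 gave no call among the 9 members tested by edgeR, with 1 at an unadjusted p under 0.05 and none called by DESeq2, beside 0.684% of genes. The log2 fold changes ran from -1.33 (Cdkn1a) to 0.50 (Rb1). In CD44LoKitNeg, E11 against E9.5 and E10 gave no call among 9 by edgeR, with 2 at an unadjusted p under 0.05 and 1 called by DESeq2, beside 0.173% of genes.

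That gene was Cdkn1b, with a log2 fold change of -2.65 (SE 0.42, edgeR adjusted p = 0.0204, DESeq2 adjusted p = 9.76e-07), and edgeR with no filter also called it (adjusted p = 0.00455). The 8 other members ran from -1.25 (Ccnd1) to 0.18 (Ccnd3), with a lowest adjusted p of 0.127 for Cdkn1c. The difference of CD44LoKitNeg from CD44Neg at E11 was also set against that at E10, and none of 9 members was called by edgeR, with none at an unadjusted p under 0.05 and none by DESeq2, beside 0.00806% of genes. For Cdkn1b this difference was -1.57 on the log2 scale (SE 0.77, edgeR adjusted p = 0.497), from 2 CD44LoKitNeg libraries at E10, so whether it changed with stage differently in the 2 populations was not settled.

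Other summed levels also differed between stages in the CD44LoKitNeg libraries. The summed level of 15 G2/M genes, which drive mitosis, was 5400 CPM at E9.5, 1610 and 2390 at E10 and 381 to 846 at E11, and that of 20 E2F target genes was 3270, 2640 and 3150, and 849 to 1840. Of the 15 G2/M genes, none was called by edgeR between these stages, with 12 at an unadjusted p under 0.05 and 6 called lower by DESeq2 (median log2 fold change -2.30). The 8 endothelial markers summed to 3730 CPM at E9.5, 3720 and 5000 at E10 and 7220 to 8660 at E11, and the 8 blood progenitor markers to 29.2, 95.2 and 134, and 4.49 to 16.1. By edgeR none of either list was called, with 6 of 8 and 3 of 4 tested at an unadjusted p under 0.05, and DESeq2 called 6 endothelial markers higher and 2 blood progenitor markers lower at E11. The mesenchyme markers summed to 20.3, 4.19 and 5.70, and 8.14 to 63.0 CPM, with none of 4 tested called by edgeR, 1 at an unadjusted p under 0.05 and 1 called higher by DESeq2. The macrophage markers were at 52.9 CPM in the E9.5 library and at most 17.9 in the others. The part of these differences in the Cdkn1b values was not tested.

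**Figure D5:**
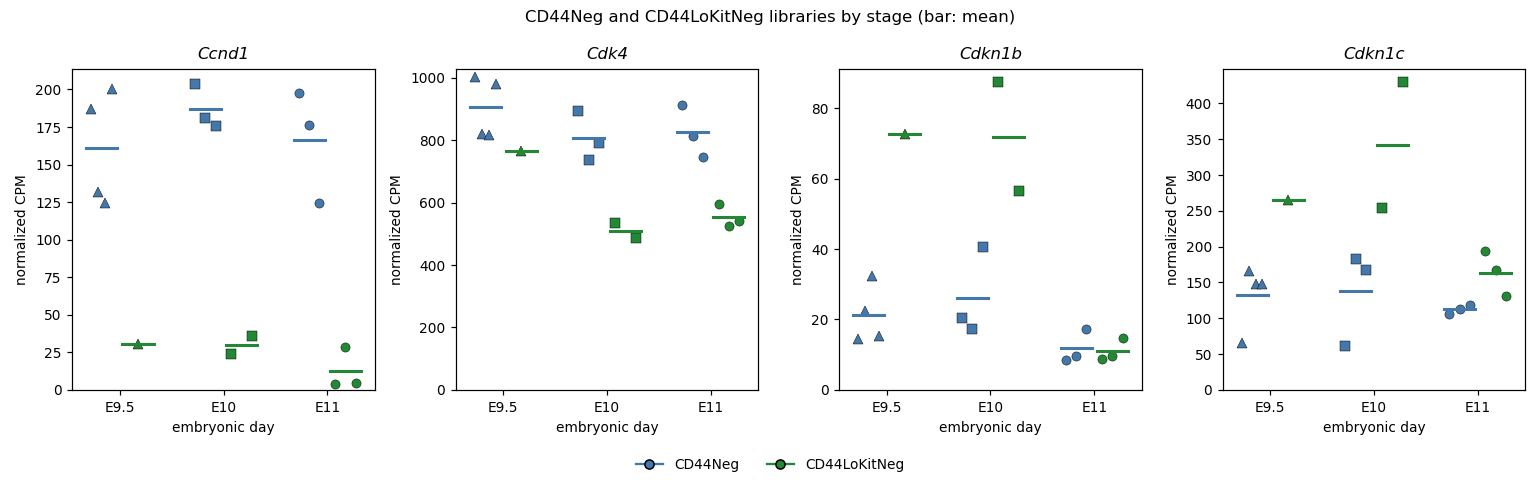
Normalized CPM (y axis, linear) of Ccnd1, Cdk4, Cdkn1b and Cdkn1c by embryonic day (x axis) in the CD44Neg and CD44LoKitNeg libraries, with each library as a point and the mean as a bar. The Ccnd1 gap is present at each stage, while Cdkn1b stands at 56.6 to 87.4 in CD44LoKitNeg at E9.5 and E10 and at 8.87 to 14.9 at E11.

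The rest of the G1/S machinery was read from a list of 28 genes, of which 26 passed the filter. None was called in CD44LoKitNeg against CD44Neg (median log2 fold change -0.29, all genes 0.01), in CD44LoKitPos against CD44Neg (0.41) or in CD44High against CD44LoKitPos (0.01) by edgeR, with 7, 4 and 5 at an unadjusted p under 0.05 and 1, 0 and 0 called by DESeq2. In CD44LoKitPos against CD44LoKitNeg, 1 of 26 was called, beside 2.55% of all genes called higher. It was Cdk2 (1.24, SE 0.28, edgeR adjusted p = 0.00661), the kinase that acts with cyclin E after the D cyclin step. In CD44High against CD44LoKitNeg, 3 of 26 were called, all higher, beside 7.79% of all genes called higher. These were Ccnh (1.63), a subunit of the CDK-activating kinase, Tfdp1 (1.20), the partner of E2F factors, and Cks2 (1.73), a CDK-binding subunit. DESeq2 called 3 higher and 2 lower there. Against CD44Neg, 2 of 26 were called, both higher, which is near the 7.14% of all genes called higher. They were Ccnh (1.44) and Rbl2 (3.09), the latter encoding the RB relative p130.

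Of 20 E2F target genes, which act in DNA replication and stand downstream of the RB step, 8 were called lower in CD44LoKitNeg than in CD44Neg. None was called higher and 12 were not called (median -0.93), beside 5.23% of all genes called lower. Among the 8 were Mcm3 (-1.08, SE 0.18, edgeR adjusted p = 0.000347) and Mcm7 (-1.11, SE 0.21, adjusted p = 0.000889) of the replicative helicase. In CD44LoKitPos against CD44LoKitNeg, 4 were called, all higher (median 1.17), beside 2.55% of all genes. Mcm7 (1.42) and Mcm3 (1.03) were among them. The numbers depended on the tool, since DESeq2 called 11 lower in the first of these comparisons and 9 higher in the second. In CD44High against CD44LoKitNeg, 11 were called, all higher (median 1.27), among them Mcm7 (1.47), beside 7.79% of all genes called higher. Against CD44Neg, 2 of 20 were higher in CD44High (median 0.35), beside 7.14% of all genes. None was called by edgeR or DESeq2 in CD44LoKitPos against CD44Neg (median 0.25) or in CD44High against CD44LoKitPos (median 0.10), with 1 at an unadjusted p under 0.05 in each.

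None of the 15 G2/M genes was called by edgeR or DESeq2 in any of the 6 comparisons. Their median was -0.90 in CD44LoKitNeg against CD44Neg and 1.32 in CD44High against CD44LoKitNeg, with 7 and 8 genes at an unadjusted p under 0.05, and between 0.09 and 0.88 in the other 4 (0 to 3 genes). Of 10 FOXO-linked and quiescence-linked genes tested, 3 were higher in CD44LoKitNeg than in CD44Neg (median 1.08): Ccng2 (1.83), Tob1 (2.03) and Txnip (1.04), each known as a growth-restraining gene. DESeq2 called 5, and edgeR called 4.94% of all genes higher there. Of 11 tested in CD44High, 1 was higher and 2 lower against each endothelial population. Of all genes, 7.79% were higher and 8.17% lower against CD44LoKitNeg, and 7.14% and 7.25% against CD44Neg. Against CD44LoKitPos 1 was lower (2.23% of all genes), and 1, Btg1, was lower in CD44LoKitPos than in CD44LoKitNeg (1.71%). DESeq2 called 6 lower in CD44High against CD44LoKitNeg, 3 against CD44Neg, 1 against CD44LoKitPos, and 4 in CD44LoKitPos against CD44LoKitNeg. In CD44LoKitPos against CD44Neg none was called by edgeR, with 3 at an unadjusted p under 0.05 and 1 called by DESeq2. Of 15 p53 target genes tested in CD44LoKitNeg against CD44Neg, 2 were lower, Bax (-1.17) and Aen (-1.42), beside 5.23% of all genes. The median of the 15 was 0.09, and DESeq2 called 2 lower and 1 higher. In each of the other 5 comparisons Plk2 was called lower (-1.88 to -4.20), and Phlda3 was called lower in CD44High against both endothelial populations. Perp and Pmaip1, which did not pass the filter among the endothelial libraries, are left out. None of these 5 lists held a call by edgeR in the stage comparisons or in their interaction, with 1 to 12 genes per list at an unadjusted p under 0.05. Beside the G2/M genes given above, DESeq2 called 3 E2F target genes, 1 G1/S gene and 1 p53 target gene lower at E11 in CD44LoKitNeg. In CD44Neg it called 1 G1/S gene and 1 E2F target gene lower and 2 p53 target genes and 1 FOXO-linked gene higher, and in the interaction 1 G1/S gene and 1 p53 target gene lower.

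Among all genes of the table, those whose log2 CPM was most like that of a member over the 22 libraries were found for each member, as a description with no test. The libraries share populations, stages and dates, so any gene that differs between populations can rank high. Ccnd1 was most like Aplnr (Pearson r = 0.921), the apelin receptor gene, and Pde2a (0.918). Cdkn1c was most like Cfl2 (0.971) and Mpdz (0.953), Cdk4 most like Cct7 (0.913) and Polr2e (0.881), and Cdk6 most like Psme2b (0.908) and Fyb (0.903). For Ccnd2 the nearest were Hoxa7 (0.843) and Afap1l1 (0.839), for Ccnd3 Dpp3 (0.848) and Cherp (0.808), and for Cdkn1b Dhx36 (0.85) and Sfpq (0.84). Cdkn1a, with Rmi2 (0.764) and Gm6402 (0.684), and Rb1, with Spon1 (0.763) and Bdp1 (0.742), had no neighbour above 0.8, and Cdkn2c, at 0 in most libraries, had Slc17a9 (0.901) and Tlr1 (0.887).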

How the data were processed

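Per the labels, each of the 22 libraries held RNA of 25 cells, amplified for 14 cycles by Smart-seq2. The authors clipped the reads with FASTX, aligned them with RNA STAR and counted them with htseq-count on Galaxy. The submitters' processing notes name FastQC, HTSeq and mm10. Versions, annotation and the strand setting are not given in the sources used here. The deposited values were raw counts per gene, with no normalization, for 24454 genes.

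Libraries were grouped by the labels. From the counts, edgeR 4.0.16 (R 4.3.3) was run with filterByExpr (minimum count 10, minimum total 15), TMM scaling and the quasi-likelihood test, adjusted over all genes tested and called under 0.01. CD44LoKitNeg against CD44Neg and each stage comparison were fitted on the libraries of the populations named, their interaction on the E10 and E11 ones, and the other comparisons on all 22. Normalized CPM use the TMM-scaled library size. Lengths are unions of GENCODE M21 exons. The scripts were tested on simulated counts.

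The alternatives were DESeq2 1.42.0 (Wald test or size factors alone), no filter, stage as a covariate, single stages and leaving out each library. E9.5 and E10 alone for CD44LoKitNeg against CD44Neg was chosen after seeing the data. The members and lists were chosen with earlier results of these data known. Fold changes are named for members called in the main fit or at least 1 alternative, except Cdkn2c, which passed the filter only through CD44High, called genes of the G1/S list are named in full, other lists by up to 3 genes of lowest adjusted p, and neighbours are the 2 genes with the highest r of log2 CPM (prior count 2). One gene of the E2F target list is not reported here by name.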

Additional observations from a re-analysis of the deposited data

Results flagged for a closer look

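The values of the 10 genes in the CD44Neg and CD44LoKitNeg libraries, 20 groups in all, were searched by Dixon's test for a library far from the others of its group. That test flags about 1 in 20 groups by chance where values are normally distributed. These groups mix stages, and Cdkn2c is mostly 0, so that rate need not hold and the number of flags is not a test result. It picked out 3 libraries, each for another gene. Cdkn1a was at 41.7 normalized CPM in CD44Neg replicate 5, an E9.5 library, against 10.8 in the next highest and 2.46 in the lowest. Rb1 was at 73.1 CPM in CD44LoKitNeg replicate 15, an E10 library, against 29.0 in the next. Cdkn2c was at 0.861 CPM in CD44Neg replicate 7, an E9.5 library, against 0.447 in the next and 0 in 8 others, a difference of 6 against 2 counts.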

How the results depend on the processing

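No paired analysis was possible because the labels give each library a replicate number of its own, so no number is shared between populations. No member's direction was reversed among its named results, and the only member to change direction with DESeq2's size factors was Cdk4 in CD44LoKitPos against CD44Neg. The calls of Ccnd2, Cdk6 and Cdkn1c in CD44High against CD44LoKitNeg, of Ccnd2 and Cdkn1c against CD44LoKitPos, of Ccnd1, Ccnd2 and Cdk6 against CD44Neg, and of Ccnd1 in CD44LoKitPos against CD44Neg held in every alternative run. Counts of calls moved more, and the cause was not tested.

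In CD44LoKitNeg against CD44Neg, 1121 genes were called, but 1746 by DESeq2, 376 at E11 alone and 469 at E9.5 and E10, where fewer libraries entered. The 2 member calls became 1 with no filter, 4 with stage as a covariate, 0 at E11 alone and 1 at E9.5 and E10. For the runs with no filter and with stage as a covariate, the number of all genes called is not given here. Whether those member counts only followed the calls over all genes is therefore not shown. In CD44LoKitPos against CD44LoKitNeg, 552 genes became 1265 by DESeq2, 366 with stage as a covariate and 82 at E9.5 and E10, and 0 members became 1 by DESeq2. With DESeq2's size factors in that comparison, Ccnd3 had a log2 fold change of 0.99 (adjusted p = 0.0226) and Cdk4 of 0.47 (0.052). DESeq2 called 829 genes in CD44LoKitPos against CD44Neg (edgeR 451) and 716 in CD44High against CD44LoKitPos (edgeR 390). In CD44High against CD44Neg, E11 alone gave 1011 genes and 3 members (1864 and 5 with all libraries). For stage in CD44Neg, 77 genes became 279 with no filter and 429 by DESeq2. For stage in CD44LoKitNeg, 19 became 163 and 558, with 1 member, Cdkn1b, in both. For the interaction, 1 became 190 and 121.

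Leaving out 1 library at a time gave 875 to 1222 genes and 1 to 3 members in CD44LoKitNeg against CD44Neg, 65 to 687 and 0 to 1 in CD44LoKitPos against CD44LoKitNeg, and 159 to 630 and 1 in CD44LoKitPos against CD44Neg. It gave 251 to 408 genes and 2 to 3 members in CD44High against CD44LoKitPos, 1334 to 2176 and 3 against CD44LoKitNeg, and 1340 to 1889 and 4 to 6 against CD44Neg. It gave 8 to 98 genes for stage in CD44Neg, 0 to 2 in CD44LoKitNeg and 0 to 3 for the interaction, with 0 members in each. Gene counts moved by over 1.5 times in CD44LoKitPos against CD44LoKitNeg without CD44LoKitPos replicate 17 (65) or 18 (160) or CD44LoKitNeg replicate 11 (342), 12 (312) or 13 (334), and against CD44Neg without CD44LoKitPos replicate 17 (182) or 18 (159). They did so in CD44High against CD44LoKitPos (251) and CD44LoKitNeg (1334) without CD44High replicate 22, for stage in CD44Neg without replicate 1, 2, 3, 4 or 7 (8, 21, 9, 14 and 24), and for stage in CD44LoKitNeg without any 1 of its 6 libraries. At 3 counts, a level under 0.348 to 0.813 CPM cannot be told from 0, which limits Cdkn2c, and the single E9.5 library limits stage in CD44LoKitNeg.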
